A study of Mus musculus with 8 samples.

Results

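Transcripts of 31 sterol and fatty acid synthesis genes were examined in CD11b+ cells from the ascites of mice bearing ID8 tumors, with and without anti-LIF treatment. The 31 genes were listed by name, and each was measured through the array features that carry its symbol alone. Of these, 29 had such a feature, 1 feature each, among 22180 genes tested. Idi1 and Scd2 share their feature with another symbol and were not analysed here. The 31 genes comprise 17 enzymes of the cholesterol arm, 9 enzymes of the fatty acid arm, 4 regulators (Srebf1, Srebf2, Insig1 and Insig2) and the sterol transporter gene Stard4.

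All mice were female C57BL/6, aged 8 weeks when ID8 ovarian cancer cells, a mouse line that grows in the peritoneal cavity, were injected into the peritoneum. The comparison holds 4 control mice and 4 mice given the LIF-neutralizing antibody (anti-LIF) for 25 days from day 12 after inoculation, 2 times a week. That start day is from the deposited records, and the paper gives a later one for its ID8 tumor growth experiment. For the controls, the labels state no treatment and the methods a control IgG. Magnetic beads against CD11b were used to collect the cells, which retains macrophages, monocytes and neutrophils, and RNA of each mouse was hybridized to 1 Affymetrix array. Values are log2 intensities after RMA normalization, a change is the anti-LIF mean minus the control mean on that scale, given with its standard error (SE), and a gene was called when its adjusted p from limma over all genes was under 0.1.

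Cholesterol and fatty acids are both built from acetyl-CoA. The mevalonate pathway makes isoprenoid units, which are joined to squalene, closed to lanosterol and trimmed to cholesterol. In the fatty acid arm, citrate is cleaved to acetyl-CoA, carboxylated, polymerized to palmitate, and then elongated and desaturated. The transcription factors SREBP1 and SREBP2, encoded by Srebf1 and Srebf2, control these genes. SCAP carries them out of the endoplasmic reticulum when sterols are low, and INSIG proteins hold them back when sterols are high. In macrophages SREBP1 is also induced by the oxysterol receptor LXR, and the desaturated fatty acids it promotes serve membranes and lipid mediators.

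After anti-LIF treatment single genes of both arms and of the regulators passed the test, and most did not. Of the 29 measured genes, 9 fell, 2 rose and 18 did not pass the test. The lower genes were Fdft1, Nsdhl, Hsd17b7, Sc5d, Scd1, Fads1, Srebf1, Insig1 and Insig2, and the higher genes were Acly and Fads2. Over all genes 11.0% were called lower and 5.79% higher, against 31% and 6.90% of the measured members, and with arrays centred on their medians 14.7% of all genes were lower and 3.38% higher. Most members lay above the median level of all genes, where lower calls were more frequent. Among the 11090 genes above it 20.6% were lower and 6.46% higher, and of the 27 members above it 8 were lower (29.6%) and 2 higher (7.41%). The median log2 fold change of those 27 was -0.11, against -0.12 for all genes above the median level and 0.03 for all genes. Because RNA was taken from a mixed cell preparation, fewer cells of a type and less RNA per cell cannot be told apart in any of these values.

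**Figure D1:**
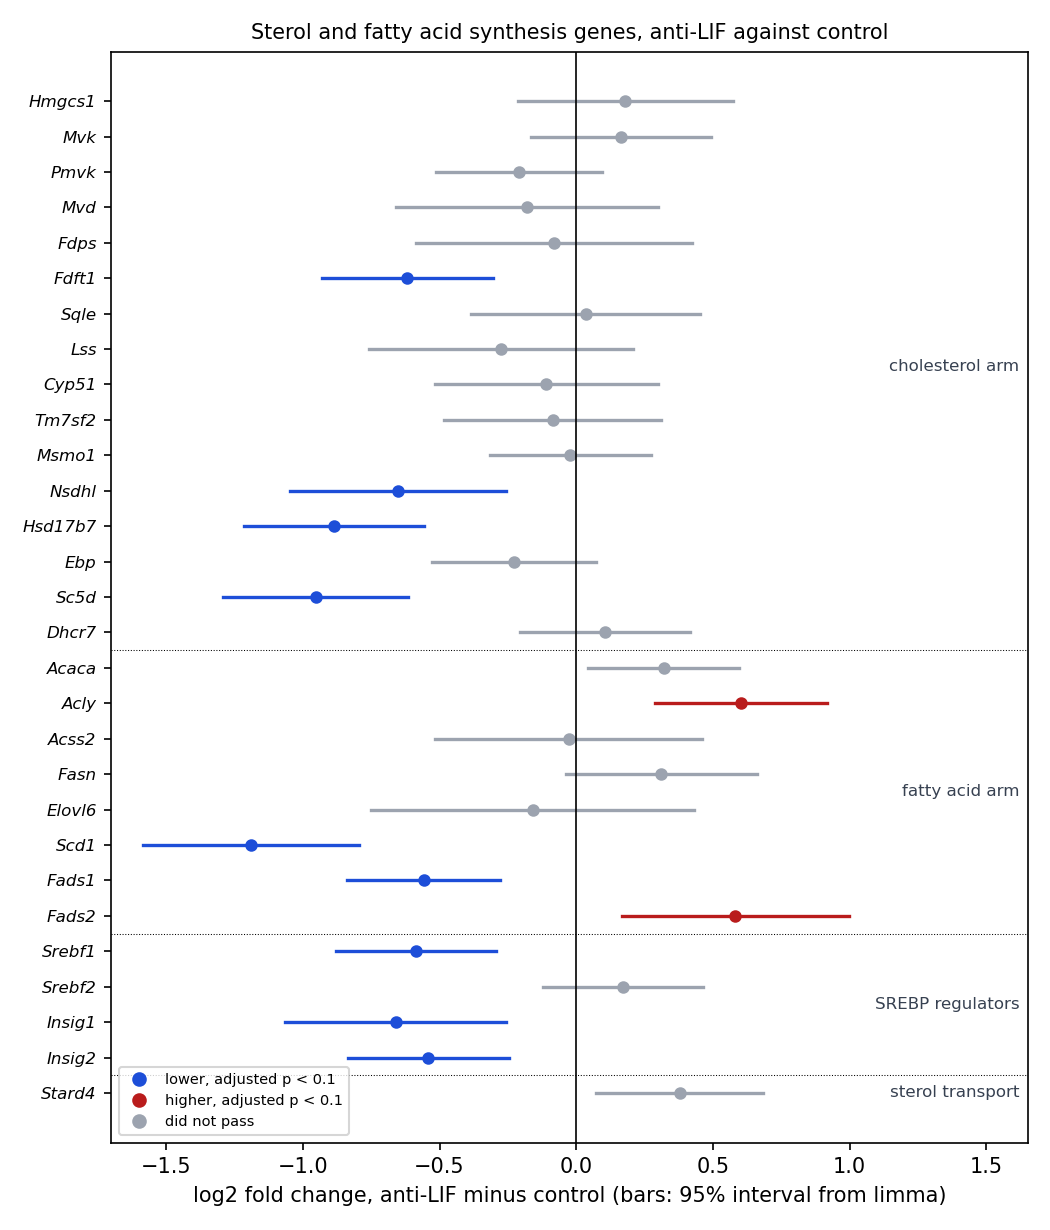
Log2 fold change (anti-LIF minus control, x axis) of each of the 29 measured genes in pathway order (y axis), with 95% intervals from limma, 4 mice per group. Points are blue where the gene was called lower (9 genes), red where it was called higher (2 genes) and grey otherwise, and the changed genes are spread over both arms and the regulators.

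Correlations were 0.960 to 0.974 between arrays of one group and 0.935 to 0.964 across the groups. Markers of cell types and of the cell cycle are counted here beside 11.0% of all genes lower and 5.79% higher, or 20.6% and 6.46% of genes above the median level. Of 10 macrophage markers, 6 fell and none rose, and their mean log2 level was 8.71 to 9.52 on control arrays and 8.11 to 8.45 on anti-LIF arrays. Of 14 cell cycle genes, 5 rose and 1 fell, with means of 5.61 to 5.94 in control mice and 5.95 to 6.18 in treated mice. Of 10 neutrophil markers 3 fell and none rose (5.47 to 6.19 against 5.08 to 5.50), and of 9 T and NK cell markers 2 rose and none fell (3.72 to 3.95 against 3.98 to 4.67). The 12 tumor and mesothelial markers, with 1 higher and 2 lower, had overlapping means of 7.43 to 7.80 and 7.60 to 7.84. That mean hides unlike genes, with log2 fold changes from -0.69 to 1.88 within the list. Their median level was 8.48, above the 4.61 of all genes and close to the 8.53 of the macrophage markers. Single genes of the list lay between 3.18 and 9.87. Intensities of different features do not measure amounts between genes, so how much RNA came from such cells was not determined. Of 7 dendritic cell markers 1 rose and none fell (4.61 to 4.82 against 4.75 to 4.94), and of 7 B cell markers none was called (3.41 to 3.69 against 3.61 to 3.88). The part of these shifts in the results on lipid synthesis genes was not tested.

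In the cholesterol arm the called genes lay at squalene synthase and the sterol steps after it, and no gene upstream of it was called. Of 16 measured genes 4 fell, none rose and 12 did not pass the test, and the median change was -0.14. These 4 are 25.0% of the arm, and 3 of its 15 genes above the median level were lower, against the 20.6% of all genes at such levels. The arm's share of lower calls was therefore near the background, and the values of the single genes are what the data show.

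Sc5d, which encodes a desaturase of the sterol ring late in the pathway, had log2 values of 7.01, 7.20, 7.62 and 7.26 in control mice and 6.07, 6.44, 6.37 and 6.40 in treated mice. Every treated mouse lay below every control mouse. The change was -0.95 (SE 0.15, adjusted p = 0.0047 from limma), which is 1.94-fold lower. Hsd17b7, whose product reduces the keto group left during demethylation of the sterol ring, had 4.14, 4.40, 3.91 and 4.05 in control mice and 3.29, 3.45, 2.95 and 3.28 in treated mice. Again the groups did not overlap, and the change was -0.89 (SE 0.15, adjusted p = 0.0056), although its level lay below the control median of all genes (4.57), where no background level could be set.

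Nsdhl, the dehydrogenase that acts just before Hsd17b7 in the same demethylation, had 5.62, 5.93, 5.78 and 5.32 in control mice and 4.84, 5.46, 4.93 and 4.81 in treated mice. Treated replicate 6 lay above control replicate 4, so the groups overlapped. The change was -0.65 (SE 0.18, adjusted p = 0.042), and the call was lost when control replicate 2, control replicate 3, treated replicate 7 or treated replicate 8 was left out (adjusted p = 0.10 to 0.11). Fdft1, encoding squalene synthase, the first enzyme committed to sterols, had 6.63, 6.79, 7.17 and 6.76 in control mice and 6.30, 6.35, 6.08 and 6.16 in treated mice. Those values did not overlap, with a change of -0.62 (SE 0.14, adjusted p = 0.021).

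For Sc5d, Hsd17b7 and Fdft1 the exact two-sided permutation test gave p = 0.029, the smallest that 4 mice against 4 allow, and for Nsdhl p = 0.057. Among all genes 11.9% were lower in every treated mouse than in any control mouse, and among genes above the median level 22.5% were. In the cholesterol arm 3 of 16 were.

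The other genes of the sterol steps did not pass the test. Msmo1, which encodes the methyl oxidase that works on the same carbon as Nsdhl and Hsd17b7, had 6.11, 6.07, 6.34 and 6.31 in control mice and 6.26, 6.34, 5.93 and 6.21 in treated mice. Its change was -0.02, with a 95% interval from -0.32 to 0.27. The 3 enzymes of this demethylation thus had unlike values, with Nsdhl and Hsd17b7 called and Msmo1 not. The difference between them was not tested. Dhcr7, the gene of the last reductase on the way to cholesterol, which follows Sc5d, had a log2 fold change of 0.11 (95% interval -0.21 to 0.42). Ebp, the sterol isomerase gene just before Sc5d, had -0.23 (95% interval -0.53 to 0.07). The reductase gene Tm7sf2 was at -0.09 and the lanosterol demethylase gene Cyp51 at -0.11. Squalene epoxidase, encoded by Sqle and a rate-limiting enzyme of the pathway, had 0.03 (95% interval -0.38 to 0.45).

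Upstream of squalene, 5 genes were measured and none was called. Of all genes above the median level 20.6% were lower, so with 5 genes no difference between early and later steps was read from this. Hmgcs1, which makes HMG-CoA, had 7.52, 7.35, 7.25 and 7.09 in control mice and 7.79, 7.73, 7.37 and 7.03 in treated mice, and both the highest and the lowest of the 8 values came from treated mice. Its change was 0.18 (95% interval -0.21 to 0.57, adjusted p = 0.56 from limma). The kinase genes Mvk and Pmvk had log2 fold changes of 0.16 and -0.21, the decarboxylase gene Mvd of -0.18 and the farnesyl diphosphate synthase gene Fdps of -0.08. Their 95% intervals reached down to -0.66 for Mvd and -0.59 for Fdps, which takes in or nears the size of the changes in Fdft1 (-0.62) and Nsdhl (-0.65).

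**Figure D2:**
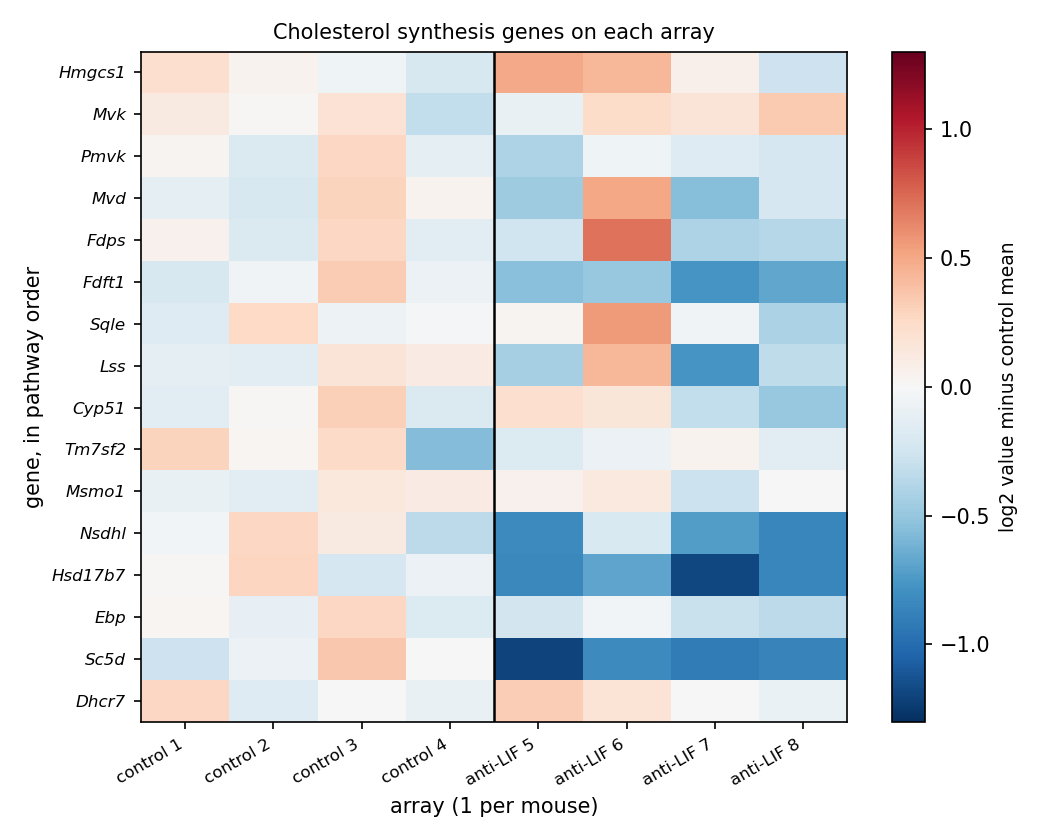
Log2 value of each cholesterol arm gene minus its control mean (colour) on each of the 8 arrays (columns, 1 mouse each), with genes in pathway order from top to bottom. Fdft1, Hsd17b7 and Sc5d are blue on all 4 anti-LIF arrays, whereas anti-LIF replicate 6 is red for Mvd, Fdps, Sqle and Lss.

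The promoters of the called sterol genes Nsdhl, Hsd17b7 and Sc5d are printed beside that of Hmgcs1, which was not called and was the one member whose window held the letters of the sterol regulatory element. Sequences are from RefSeq in GRCm38.p6, 250 bases before to 50 after the annotated start, 5′ to 3′ along the gene. Capitals mark matches on either strand to TCACNCCAC, the core of a sterol regulatory element bound by SREBP, to CCAAT, the box of its partner NF-Y, and to GGGCGG, the box of Sp1. No matches overlapped in these windows.
Hmgcs1, chr13:119690101-119690400, plus strand: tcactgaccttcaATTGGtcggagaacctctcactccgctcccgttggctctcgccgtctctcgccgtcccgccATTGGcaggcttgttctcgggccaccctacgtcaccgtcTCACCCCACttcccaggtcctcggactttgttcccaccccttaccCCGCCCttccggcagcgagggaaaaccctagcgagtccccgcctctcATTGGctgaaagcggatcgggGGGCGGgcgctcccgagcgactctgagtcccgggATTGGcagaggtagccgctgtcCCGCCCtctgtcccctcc
Nsdhl, chrX:72918271-72918570, plus strand: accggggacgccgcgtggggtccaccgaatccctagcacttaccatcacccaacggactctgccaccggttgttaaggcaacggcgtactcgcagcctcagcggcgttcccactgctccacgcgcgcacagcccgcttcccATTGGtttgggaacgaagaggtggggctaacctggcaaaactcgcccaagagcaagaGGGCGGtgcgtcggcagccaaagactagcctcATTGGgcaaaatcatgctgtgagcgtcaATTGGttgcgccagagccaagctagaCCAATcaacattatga
Hsd17b7, chr1:169969156-169969455, minus strand: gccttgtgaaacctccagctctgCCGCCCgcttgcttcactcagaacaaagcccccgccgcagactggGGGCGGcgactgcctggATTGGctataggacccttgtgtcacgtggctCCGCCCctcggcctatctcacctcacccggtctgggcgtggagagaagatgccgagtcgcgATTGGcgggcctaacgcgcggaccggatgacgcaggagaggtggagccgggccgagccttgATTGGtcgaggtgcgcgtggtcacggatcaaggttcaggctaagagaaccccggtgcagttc
Sc5d, chr9:42264251-42264550, minus strand: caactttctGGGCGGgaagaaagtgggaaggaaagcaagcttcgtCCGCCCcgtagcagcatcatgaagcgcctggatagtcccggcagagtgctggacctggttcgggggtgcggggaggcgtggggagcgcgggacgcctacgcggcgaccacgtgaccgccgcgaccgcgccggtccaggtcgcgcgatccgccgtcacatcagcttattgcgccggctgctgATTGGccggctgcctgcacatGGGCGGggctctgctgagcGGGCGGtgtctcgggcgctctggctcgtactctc

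The sterol regulatory element letters occurred 1 time in the Hmgcs1 window and in no other window of the members. Of the 31 genes, 24 had a promoter sequence available, with 31 windows because some genes have several starts. There was none for Fdft1, Sqle, Fdps, Scd1, Scd2, Fads1 and Stard4, so the called gene Fdft1 could not be printed. CCAAT was found in 22 of the 31 windows (71%), against 37.4% of all 32851 windows and 38.2% of those of protein-coding genes. GGGCGG was found in 23 (74.2%), against 35.7% and 46.2%, and TCACNCCAC in 1 (3.23%), against 1.24% and 1.19%. Hmgcs1 and Nsdhl each had 4 CCAAT boxes, Hsd17b7 had 3 and Sc5d had 1. A match to these letters is a description and not a binding site, and with 4 chosen genes no relation between boxes and changes was read from the counts.

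In the fatty acid arm, genes moved in both directions. Of 8 measured genes, Acly and Fads2 rose, Scd1 and Fads1 fell and 4 were not called, and the median change was 0.14. Of all genes 5.79% were called higher and 11.0% lower, against 25.0% and 25.0% of this arm, which stand for 2 genes each. Of its 7 genes above the median level 2 were lower and 2 higher (28.6% each), against 20.6% and 6.46% of all genes at such levels. With so few genes nothing about the arm was read from these shares. Of the genes on the way to palmitate, Acly rose and Acaca, Acss2 and Fasn were not called, and both lower genes encode desaturases.

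Scd1, which encodes the stearoyl-CoA desaturase that makes oleate and palmitoleate, had the largest change of the 29 genes. It had log2 values of 8.45, 8.58, 8.62 and 8.42 in control mice and 7.48, 7.78, 7.17 and 6.88 in treated mice. The control values lay within a narrow range, and all treated values lay well below it. The change was -1.19 (SE 0.18, adjusted p = 0.0036 from limma), which is 2.28-fold lower. It was between -1.34 and -1.04 when each array was left out in turn.

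Fads1 and Fads2, which encode desaturases of polyunsaturated fatty acids, moved in opposite directions. They are neighbours of Fads3 in 1 gene cluster on chromosome 19. Fads1 had 8.96, 8.97, 8.71 and 8.89 in control mice and 8.47, 8.40, 8.14 and 8.28 in treated mice. Its values did not overlap between the groups, with a change of -0.56 (SE 0.13, adjusted p = 0.020). Fads2 had 9.33, 9.18, 8.45 and 8.87 in control mice and 9.59, 9.31, 9.48 and 9.78 in treated mice, so that treated replicate 6 lay just below control replicate 1. Its change was 0.58 (SE 0.19, adjusted p = 0.075), and the call was lost without control replicate 3 (0.41, adjusted p = 0.16) and in 6 other alternatives.

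The log2 value of Fads2 minus that of Fads1 summarizes this within each mouse. It was 0.37, 0.21, -0.25 and -0.02 in control mice and 1.12, 0.91, 1.34 and 1.50 in treated mice, so that it shifted by 1.14 between the group means. That shift follows from the changes of both genes given above and was not tested. Control replicate 3 had the lowest difference. Fads3, a related gene of the cluster whose product acts on sphingoid bases, fell with Fads1, from 7.51, 7.72, 7.59 and 7.64 to 7.04, 7.05, 6.93 and 7.14 (log2 fold change -0.58, adjusted p = 0.011).

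**Figure D3:**
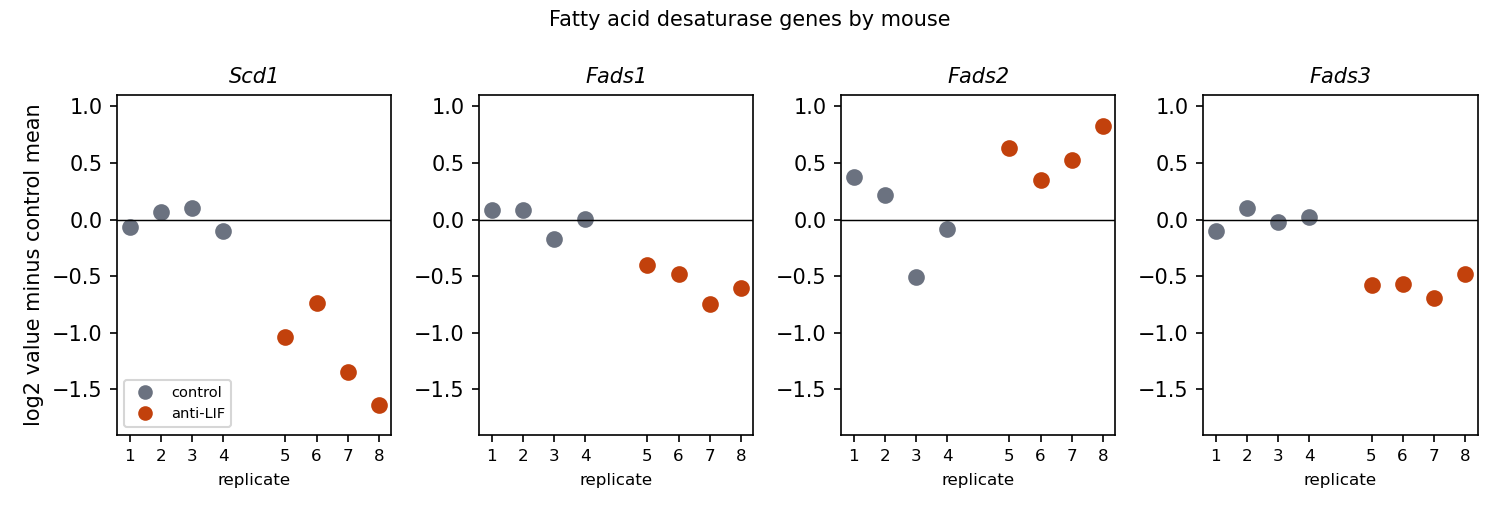
Log2 value minus the control mean (y axis) of Scd1, Fads1, Fads2 and Fads3 in each mouse (x axis, control replicates 1 to 4 in grey and anti-LIF replicates 5 to 8 in orange). All treated mice are below all control mice for Scd1, Fads1 and Fads3, whereas Fads2 is above its control mean in all 4.

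Acly, which encodes ATP citrate lyase, the enzyme that supplies cytosolic acetyl-CoA to both arms, had 7.27, 7.25, 7.07 and 6.93 in control mice and 7.56, 7.56, 8.00 and 7.80 in treated mice. Every treated mouse lay above every control mouse, and the change was 0.60 (SE 0.14, adjusted p = 0.023 from limma). Of all genes 6.53% were higher in every treated mouse. Acaca, the gene of acetyl-CoA carboxylase, the committed step of fatty acid synthesis, had 5.51, 5.78, 5.45 and 5.42 in control mice and 5.85, 5.75, 5.96 and 5.88 in treated mice. Its change was 0.32 (95% interval 0.04 to 0.60) and did not pass over all genes (adjusted p = 0.13), but did among genes above the median level (adjusted p = 0.059) and without control replicate 2 (adjusted p = 0.097). Fasn, the fatty acid synthase gene, had 0.31 (95% interval -0.04 to 0.66, adjusted p = 0.24), and its groups overlapped.

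The remaining genes of the arm varied more among treated mice than among controls. Acss2, whose product makes acetyl-CoA from acetate, had values of 4.07 to 5.21 in treated mice, with the highest in replicate 5, and 4.26 to 4.60 in control mice. Elovl6, the elongase gene that extends palmitate, had 6.02, 6.06, 5.10 and 4.85 in treated mice and 5.35 to 6.02 in control mice. Their log2 fold changes were -0.03 and -0.16, and neither passed the test.

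Of the 4 regulators 3 fell, and Srebf2 was not called. All 4 lay above the median level, where 20.6% of genes were lower, against 11.0% of all genes. With 4 genes nothing about the regulators as a group was read from this count. Srebf1 had log2 values of 5.99, 6.18, 6.29 and 6.33 in control mice and 5.45, 5.63, 5.54 and 5.82 in treated mice, with no overlap, and a change of -0.59 (SE 0.13, adjusted p = 0.020 from limma). Srebf2 had 7.04, 7.33, 6.93 and 7.04 in control mice and 7.43, 7.32, 7.13 and 7.15 in treated mice. These overlapped, and the change was 0.17 (95% interval -0.12 to 0.46, adjusted p = 0.45). The difference between the 2 factors was not tested. SREBP activity depends on cleavage of the protein, which these arrays do not measure.

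Insig1, itself a target of SREBP, had 6.36, 6.68, 7.25 and 6.50 in control mice and 6.10, 5.98, 5.87 and 6.19 in treated mice. The groups did not overlap, with a change of -0.66 (SE 0.18, adjusted p = 0.043), which lay between -0.77 and -0.48 with 1 array left out. The call was lost without treated replicate 7 (adjusted p = 0.11). Insig2 had 7.15, 7.28, 7.27 and 7.52 in control mice and 6.81, 6.96, 6.71 and 6.57 in treated mice, again without overlap, and its change was -0.54 (SE 0.13, adjusted p = 0.028). Stard4, whose product carries cholesterol between membranes, had 4.24, 4.60, 4.58 and 4.44 in control mice and 4.95, 4.93, 4.57 and 4.91 in treated mice. Its log2 fold change of 0.38 did not pass the test (95% interval 0.07 to 0.68, adjusted p = 0.11), but did without treated replicate 7 (0.47, adjusted p = 0.077).

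**Figure D4:**
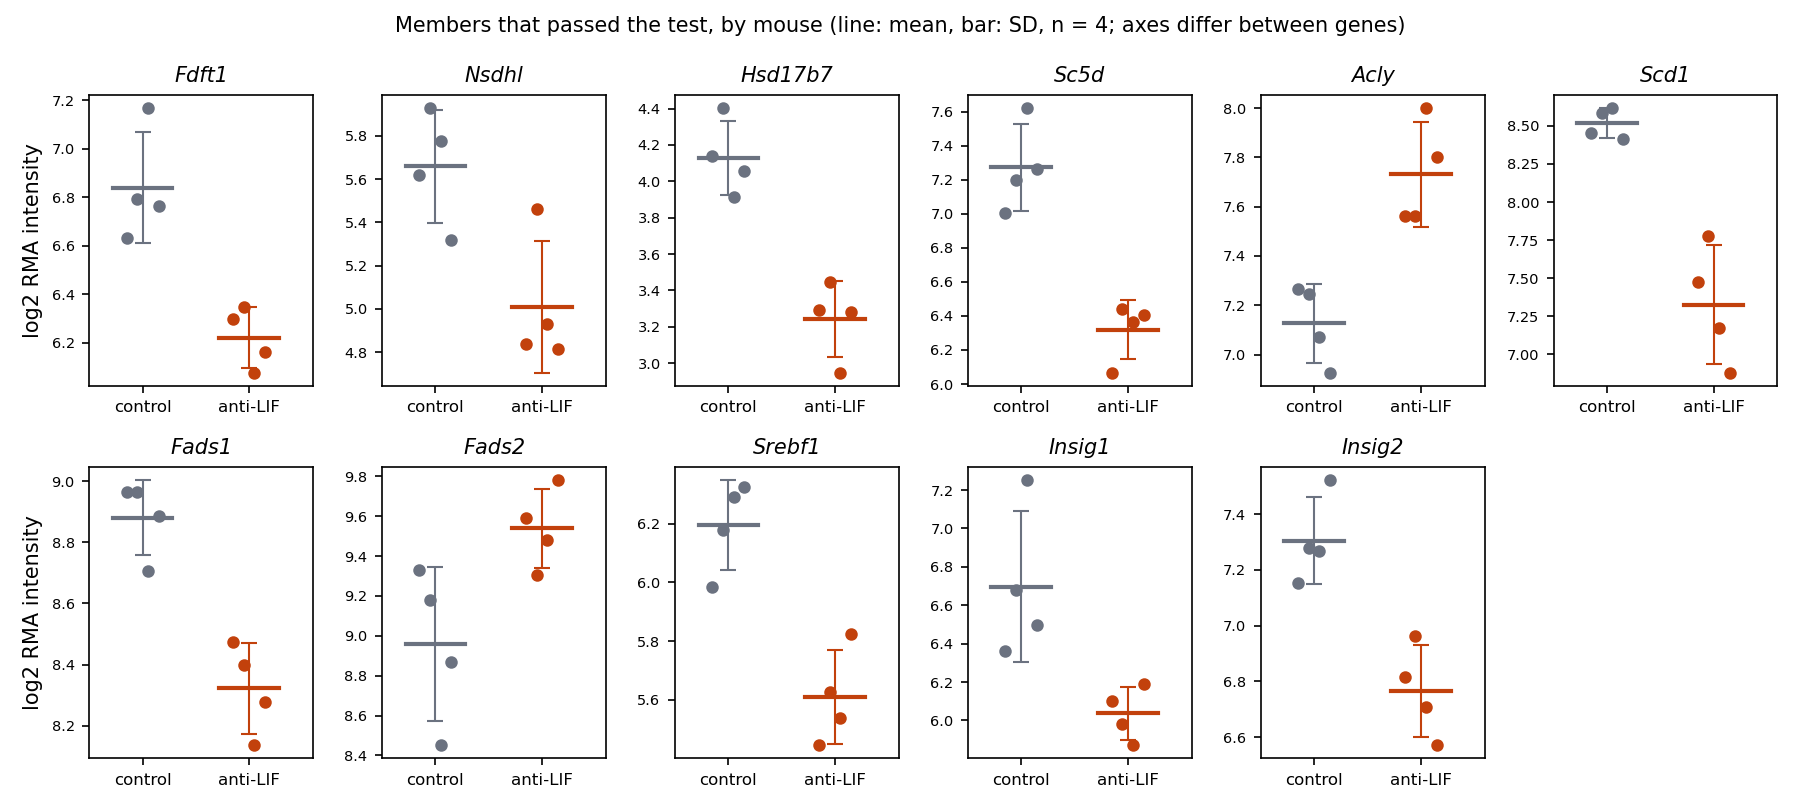
Log2 RMA intensity (y axis, a separate range for each gene) of the 11 called genes in each control mouse (grey) and anti-LIF mouse (orange), with the group mean as a line and the SD as a bar, 4 mice per group. The groups do not overlap for 9 of the 11 genes, and do for Nsdhl and Fads2.

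The exact two-sided permutation test gave p = 0.029 for Scd1, Fads1, Acly, Srebf1, Insig1 and Insig2, and p = 0.057 for Fads2 and for Acaca. In all, 8 of the 29 genes were lower in every treated mouse and 1 was higher, against 11.9% and 6.53% of all genes. Among genes above the median level 22.5% were lower in this way.

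The arms were also compared through their mean in each mouse. The mean log2 value over the 16 cholesterol arm genes was 5.74, 5.72, 5.91 and 5.61 in control mice and 5.47, 5.81, 5.36 and 5.39 in treated mice. Treated replicate 6 lay within the control range, and the other 3 treated mice lay below it. The mean over the 8 fatty acid arm genes was 7.04, 7.08, 6.83 and 6.81 in control mice and 7.07, 6.96, 6.82 and 6.85 in treated mice, which overlapped throughout. The cholesterol mean minus the fatty acid mean averaged -1.20 ± 0.19 in the controls and -1.42 ± 0.19 after treatment (SD, n = 4 each), with overlap between the groups. That shift of -0.22 is about the size of the spread between mice.

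Treated replicate 6 had the highest value of the 4 treated mice for 11 of the 16 cholesterol arm genes, and of all genes 26.3% were highest in this mouse. For Fdps, the farnesyl diphosphate synthase gene, it had 6.38, and the other treated mice had 5.42, 5.28 and 5.31. For the lanosterol synthase gene Lss it had 5.51 against 4.64, 4.31 and 4.74, and for Mvd 5.38 against 4.42, 4.32 and 4.66. In the fatty acid arm it was highest for 2 of 8 genes. Among the control mice, replicate 3 was highest for 10 of the 16 cholesterol arm genes, where 31.7% of all genes were highest in it, and for 1 of the 8 fatty acid arm genes.

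Without treated replicate 6 the median log2 fold change of the cholesterol arm was -0.28, and 13 of 16 genes were below 0. Lss was then called lower, at -0.51 (adjusted p = 0.072), beside Fdft1, Nsdhl, Hsd17b7 and Sc5d, which made 5 lower genes, where 9.41% of all genes were lower. Mvd and Fdps stood at -0.41 (adjusted p = 0.15) and -0.34 (adjusted p = 0.19). The median of the fatty acid arm was 0.19 without this mouse. Leaving out the mouse that was highest among the treated lowers the arm by construction, and leaving out control replicate 3 moved it the other way. Without control replicate 3 the median of the cholesterol arm was -0.044, 10 of 16 genes were below 0 and 3 were called lower (Fdft1, Hsd17b7 and Sc5d), where 7.44% of all genes were lower. Nsdhl then lost its call (-0.61, adjusted p = 0.10), Lss was at -0.22, and Fdps and Msmo1 were at 0.0084 and 0.023. Over the 8 arrays left out in turn the arm's median lay between -0.28 and -0.044.

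Other genes around these pathways, listed apart from the 31, were mostly not called, and more were lower than higher, as among all genes. Of 9 measured genes that process SREBP or work with INSIG, 1 fell and 8 did not pass the test. The one was Erlin1, which encodes a membrane protein that restrains SREBP, with a change of -0.54 (adjusted p = 0.030 from limma), while Scap had 0.02 and the protease genes Mbtps1 and Mbtps2 had -0.07 and -0.37. Of 10 other sterol and isoprenoid genes, 3 fell and none rose. Ggps1, which diverts farnesyl diphosphate to geranylgeranyl diphosphate, had -0.82 (adjusted p = 0.014), the sterol carrier gene Scp2 had -0.52 (adjusted p = 0.037), and Tmem97, a sterol-responsive membrane protein gene, had -0.54 (adjusted p = 0.084). Of 24 other fatty acid genes, 5 fell and 2 rose, and the median was -0.15. The changes with the largest size were those of Thrsp, a lipogenic factor gene first known in liver, at 0.61 (adjusted p = 0.068), Fads3, the dehydratase gene Hacd4 at -0.56 (adjusted p = 0.075) and Acacb, the gene of the mitochondrial acetyl-CoA carboxylase, at 0.51 (adjusted p = 0.083). Thrsp and Acacb had control means of 3.87 and 4.17, below that of the median gene. As percentages of all genes, 11.0% were lower and 5.79% were higher, and among genes above the median level 20.6% and 6.46% were. The median levels of these lists were 6.73, 6.91 and 6.18, in the order given, against 4.61 for all genes. Nothing about the lists was therefore read from their counts.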

How the data were processed

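RNA of CD11b+ cells from 4 control and 4 anti-LIF mice was assayed on Affymetrix Mouse Gene 2.1 ST arrays, 1 per mouse. The authors deposited log2 intensities after RMA normalization (by Progenika). R 3.1.2 is named in the submitters' processing notes, while the software used for RMA is not given in the sources used here. Of 41345 features, 23521 have 1 gene symbol, 1820 several and 16004 none in the platform annotation. Features with 1 symbol were averaged to 22180 genes with no filter on low values. Groups were compared with limma 3.58.1 (lmFit, eBayes) in R 4.3.3 with statmod 1.5.0, Benjamini-Hochberg adjustment over all genes and a threshold of 0.1, after the methods. The methods name paired samples without naming pairs, so the fit had none, and all 24 pairings were run as alternatives. For single genes an exact two-sided permutation test over 70 assignments was added. The named genes were the 31 members and, of each further pathway list, up to 4 called genes with the largest change. Scap, Mbtps1 and Mbtps2, which were not called, were named beside them. Members and lists were chosen with earlier results of these data known. Precision is limited by the number of arrays (median SE of a change 0.156, log2). Figures were drawn with matplotlib 3.10.9 in Python 3.11.15.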

Additional observations from a re-analysis of the deposited data

Results flagged for a closer look

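In 2 of 64 groups of 4 arrays (29 genes and 3 list means in each of 2 groups), 1 mouse lay far from the other 3, and chance gives about 1 in 20. Fdps, the farnesyl diphosphate synthase gene, was at 6.38 on the array of anti-LIF replicate 6, where the nearest other treated mouse had 5.42. Stard4, the sterol transporter gene, was at 4.57 on the array of anti-LIF replicate 7, where the nearest other treated mouse had 4.91.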

How the results depend on the processing

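Of 491 values of single genes under the alternatives, 456 kept their direction and their side of the threshold, 12 lost a call, 6 gained one and 17 changed sign. In part of these the direction was fixed in advance. Each member had 1 feature, so the alternatives that chose features differently returned the main fold changes. The fit of genes above the median level, other eBayes settings and the 24 pairings also kept the fold changes and altered only the p values. At an adjusted p under 0.1, the calls of Fdft1, Sc5d, Acly, Scd1, Fads1, Srebf1 and Insig2 were kept under every alternative run. Hsd17b7 kept its call in every alternative that held it, but its low level left it out of the fit of genes above the median level. Nsdhl lost its call in 4, Insig1 in 1 and Fads2 in 7 and also at an adjusted p under 0.05. Lower members numbered 7 to 10 with 1 array left out and higher members 1 to 3, where 7.41% to 11.0% of all genes were lower and 3.62% to 6.12% higher. In the cholesterol arm 3 to 5 were lower and 0 to 0 higher, and in the fatty acid arm 2 to 2 lower and 1 to 3 higher. Higher members were 4 among genes above the median level (10.1% of those genes were higher and 28% lower), 1 with arrays centred on their medians (3.38% and 14.7% of all genes), 1 at an adjusted p under 0.05 (3.04% and 7.43%) and 1 under the lowest of the 24 pairings (4.17% to 5.47% and 8.51% to 10.1% over the pairings). In the fatty acid arm 1 was higher with arrays centred on their medians, 1 at an adjusted p under 0.05 and 1 under the lowest of the 24 pairings. No paired analysis was possible because neither labels nor methods name the pairs, but over the 24 pairings the block kept all called genes except Fads2, which was called in 14, and Stard4 was called in 3.

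Signs changed only in genes that were not called. Sqle was at -0.054 with arrays centred on their medians and -0.032 with array weights, and Msmo1 was at 0.047 with quantile normalization again. With 1 array left out in turn, the log2 fold change ranged from -0.14 to 0.18 for Sqle, from -0.073 to 0.062 for Msmo1, from -0.34 to 0.025 for Fdps, from -0.28 to 0.10 for Acss2, from -0.27 to 0.010 for Tm7sf2, from -0.22 to 0.019 for Cyp51 and from -0.34 to 0.060 for Elovl6. The cause was not tested.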
